A study of Homo sapiens with 6 samples.

Results

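The human genes that encode collagen chains were examined in RNA sequencing libraries of cells labelled Huh7, a hepatocellular carcinoma cell line. A gene was included when its name consisted of COL, a type number, A and a chain number, without a suffix, which gave 44 of the 58233 genes listed. Of the 6 libraries, 3 came from cells transfected with a plasmid that overexpresses TP53TG1, a p53-inducible gene for a long noncoding RNA, and 3 from cells given a control plasmid. No other allele, agent or time is given in the labels, and a single cell line was used. Whether the 3 libraries of a group are separate cultures is not stated, and the p-values therefore measure only the spread between libraries, which may be technical.

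Collagens are secreted proteins in which 3 chains wind into a triple helix, and each collagen type is assembled from its own set of chains. Fibrillar collagens such as types I, III and V form the banded fibrils of connective tissue, type IV collagen forms the sheet-like network of basement membranes, and type VI collagen forms beaded microfilaments around cells. In the liver, type I and III collagens accumulate in fibrotic scars and are made mainly by activated stellate cells and fibroblasts, whereas type XVIII collagen, a basement membrane proteoglycan that releases endostatin, is also made by hepatocytes.

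Several of these genes lie head to head or use more than a single start, so the sequences in front of their starts are shown for the chains whose levels differed from those of a head-to-head neighbour or whose starts were used unequally, and for COL6A2, the most abundant chain with an entry. RefSeq promoter entries (GRCh38.p14) were found for 32 of the 44 chains and 8 of the 14 chains that reached a mean of 1 FPKM (sequenced fragments normalised to transcript length and library depth). COL4A1 and COL4A2, the genes of the most widespread type IV chains, are transcribed away from each other, and the 126 bases between their starts (chr13:110307158-110307283, plus strand, GC content 80.2%) are given whole. The other sequences are the 250 bases upstream of a start, read in the direction of transcription. Capitals mark the motifs CCAAT (read as ATTGG on the other strand), then GGGCGG (read as CCGCCC) and finally TATAAA (read as TTTATA). Neighbouring matches were counted even where they share a base, as in the upstream COL18A1 window.
COL4A1 and COL4A2, shared interval: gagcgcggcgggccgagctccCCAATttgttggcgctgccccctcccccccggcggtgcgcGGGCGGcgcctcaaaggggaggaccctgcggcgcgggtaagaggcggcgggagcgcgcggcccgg
COL4A5, chrX:108439588-108439837, plus strand: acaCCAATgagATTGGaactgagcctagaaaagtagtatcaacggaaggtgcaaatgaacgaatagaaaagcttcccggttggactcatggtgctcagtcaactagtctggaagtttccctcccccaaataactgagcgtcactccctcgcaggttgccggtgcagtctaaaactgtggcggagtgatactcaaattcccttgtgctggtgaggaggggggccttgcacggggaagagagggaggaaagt
COL4A6 start nearer to COL4A5, chrX:108439459-108439708, minus strand: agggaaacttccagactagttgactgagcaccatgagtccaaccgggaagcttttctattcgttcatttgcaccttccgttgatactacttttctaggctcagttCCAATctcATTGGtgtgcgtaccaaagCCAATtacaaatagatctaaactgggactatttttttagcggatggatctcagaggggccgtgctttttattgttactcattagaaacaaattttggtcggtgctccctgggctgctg
COL18A1 upstream start, chr21:45404915-45405164, plus strand: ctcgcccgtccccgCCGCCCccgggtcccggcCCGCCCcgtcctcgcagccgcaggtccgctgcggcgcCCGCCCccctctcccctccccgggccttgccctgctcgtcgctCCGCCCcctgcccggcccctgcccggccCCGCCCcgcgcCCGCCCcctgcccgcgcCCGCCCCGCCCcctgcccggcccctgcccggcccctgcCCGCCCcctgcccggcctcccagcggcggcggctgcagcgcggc
COL18A1 downstream start, chr21:45455272-45455521, plus strand: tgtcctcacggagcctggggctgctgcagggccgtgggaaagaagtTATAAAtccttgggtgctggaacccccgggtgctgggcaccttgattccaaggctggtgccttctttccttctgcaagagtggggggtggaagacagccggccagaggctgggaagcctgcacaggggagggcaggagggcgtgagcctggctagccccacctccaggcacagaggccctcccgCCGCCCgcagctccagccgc
COL6A2, chr21:46097862-46098111, plus strand: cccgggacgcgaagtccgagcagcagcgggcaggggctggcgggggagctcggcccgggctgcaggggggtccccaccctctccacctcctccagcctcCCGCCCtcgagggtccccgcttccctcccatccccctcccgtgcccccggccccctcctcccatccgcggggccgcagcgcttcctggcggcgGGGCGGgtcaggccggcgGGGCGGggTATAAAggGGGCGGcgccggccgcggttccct

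The COL4A1 and COL4A2 interval held 1 CCAAT and 1 GGGCGG. COL4A5 and COL4A6 also face away from each other, with 379 bases between their starts, and their upstream windows held 2 and 3 CCAAT motifs and no GGGCGG. The second COL4A6 start, 1415 bases from that of COL4A5, has an upstream window with no CCAAT and 1 GGGCGG. The windows of COL4A5 and the nearer COL4A6 start overlap, and 2 of the CCAAT motifs are the same bases read from either strand. The COL18A1 starts lie 50357 bases apart, and the upstream window held 9 GGGCGG motifs on either strand (GC content 88.4%) against 1 GGGCGG and 1 TATAAA at the downstream start. The COL6A2 window held 4 GGGCGG and 1 TATAAA. Among 35116 RefSeq promoter windows of the same length, 32% held CCAAT, 42.6% GGGCGG and 10.7% TATAAA. Among the 44 entries of collagen chains, 12 held CCAAT, 24 GGGCGG and 8 TATAAA. A match is a description of the letters and was not tested as a binding site.

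The file headers name no unit, and the values were taken as FPKM from their form. Levels are FPKM summed over the transcripts of a gene, and can be compared between genes since they are per length. Each library's FPKM summed to between 599081 and 890541, and if the step between low values is 1 fragment, a library held 11000000 to 14800000 fragments and a 5000 nt transcript at 1 FPKM rested on 54.9 to 74.1 of them. TP53TG1 lay at 69.8, 134 and 70.5 FPKM with its plasmid, against 10.6, 5.25 and 6.15 FPKM with the control plasmid. The replicates numbered 1 of both groups stood apart: the mean length of protein-coding transcripts, weighted by FPKM, was 1228, 1710 and 1652 nt in TP53TG1 replicates 1, 2 and 3 and 1311, 1681 and 1709 nt in controls 1, 2 and 3. Of 16 hepatocyte markers 11 reached a mean of 1 FPKM, and albumin (ALB), which hepatocytes secrete in large amounts, lay at 0.56 to 1.22 FPKM with TP53TG1 and 0.53 to 1.10 FPKM in controls. In bulk libraries, fewer cells of a type and less RNA per cell cannot be told apart.

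The genes that averaged 1 FPKM or more in these libraries were tested with limma on log2(FPKM + 1), a scale that understates the change of low genes, and p-values were adjusted over all 12853 of them. None of the 14 collagen chains tested passed an adjusted p of 0.05, and 1 of the 12853 genes did (0.00778%). No chain had an unadjusted p under 0.05 either, against 2.35% of all genes tested. Benjamini-Hochberg adjusted p-values from limma ran from 0.748 to 0.982 for the chains. TP53TG1 itself missed the threshold in the same limma fit, with a log2 fold change of 3.46 (SE 0.381) and an adjusted p of 0.0573. The 1 gene that passed was thus another, and a lack of calls in this fit does not show that a level was unchanged. Taking the replicate number as a block called 1.49% of all genes and 0 chains. There limma gave TP53TG1 an adjusted p of 8.97e-22 (SE 0.332), though the labels do not state the pairs that this fit assumes. At an unadjusted p under 0.05 that fit gave 1 of the 14 chains, COL1A1, against 10.7% of all genes. Block and median-of-ratios scaling together called 0.0467% of all genes and 0 chains. Without scaling between libraries the median log2 fold change of all genes tested was -0.35, and 13 of the 14 chains lay above it, where 50% of all genes do. Without control 2 the count was 9 of 14. With median-of-ratios scaling between libraries that median was -0.0040, and 12 of the 14 chains had a log2 fold change above 0, against 5 of 14 without scaling.

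The collagen RNA of these cells was mostly type VI. The 14 chains that reached a mean of 1 FPKM were 5 of 11 fibrillar chains (COL1A1, COL1A2, COL3A1, COL5A2 and COL27A1), 2 of 6 type IV chains (COL4A2 and COL4A5) and 7 of 27 others (COL6A1, COL6A2, COL6A3, COL18A1, COL9A3, COL7A1 and COL16A1). Their means spanned 1.47 FPKM for COL3A1 to 110 FPKM for COL6A1. COL6A1 stood at percentile 93.6 and COL6A2 at percentile 89.5 of the genes tested. COL18A1 and COL6A3 stood at 70.4 and 67.4, COL4A5 at 43.4, and the remaining 9 chains no higher than 26.9. On coding transcripts alone COL6A2 was the higher of the first 2, with a mean of 67.6 FPKM against 54.1 FPKM for COL6A1.

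**Figure D1:**
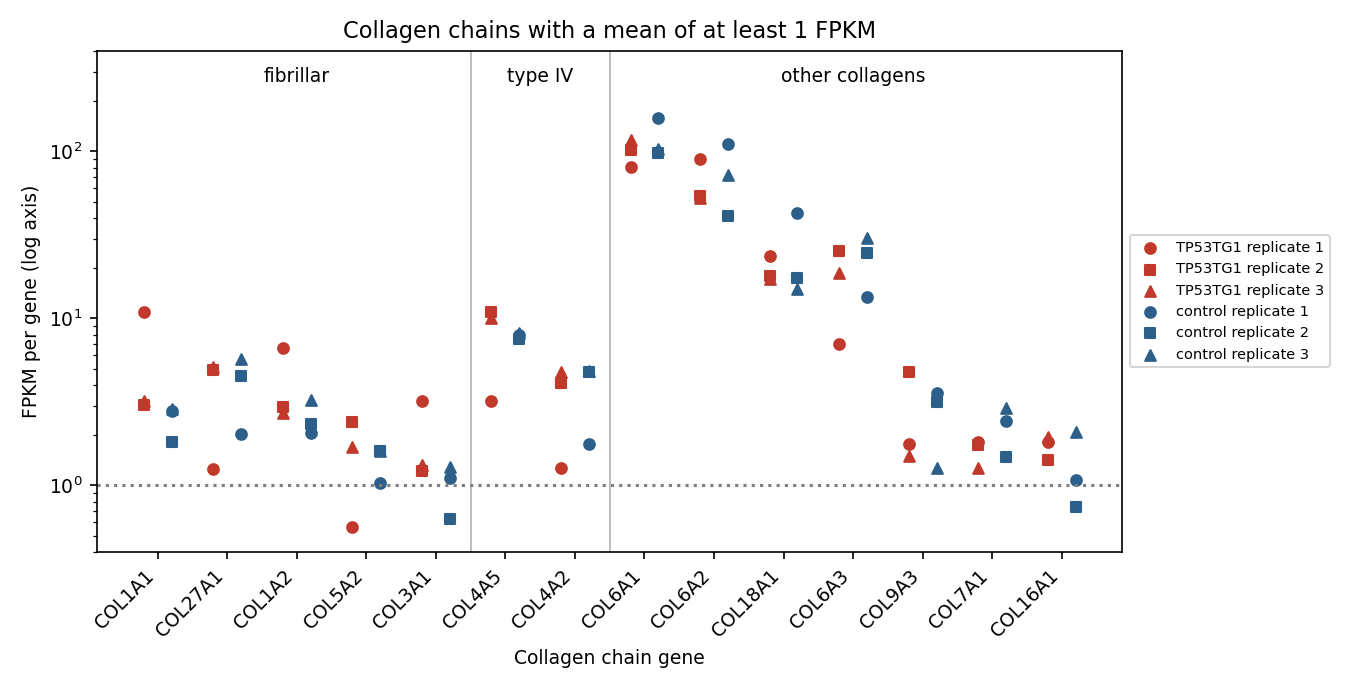
FPKM of the 14 collagen chain genes that reached a mean of 1 FPKM, on a log axis, with 3 TP53TG1 libraries in red to the left of 3 control libraries in blue and the symbol giving the replicate number. COL6A1, COL6A2, COL6A3 and COL18A1 lie above the rest in most libraries, and for COL1A1, COL1A2 and COL3A1 the highest point is TP53TG1 replicate 1.

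All 44 chains together summed to 242 ± 3.82 FPKM with TP53TG1 and 277 ± 72.97 FPKM with the control plasmid (SD, n = 3 each). The 3 type VI chains COL6A1, COL6A2 and COL6A3 made up 74.6%, 74.8% and 76.9% of this sum in the TP53TG1 libraries and 79.2%, 76.4% and 78.8% in the controls. Type VI was thus the leading collagen in each of the 6 libraries.

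Fibrillar chains contributed 9.87%, 6.47% and 6.02% of the collagen FPKM in TP53TG1 replicates 1, 2 and 3, against 3.15%, 5.82% and 6.17% in controls 1, 2 and 3. Their summed level was 18.0 ± 4.78 FPKM with TP53TG1 and 13.3 ± 2.57 FPKM in controls (SD, n = 3 each). The groups overlapped, and the replicates numbered 1 held both the highest and the lowest share. Type IV chains contributed 2.34%, 7.13% and 6.93% with TP53TG1 and 2.98%, 6.10% and 5.51% in controls, and both replicates numbered 1 were low. Their sums were 13.3 ± 6.68 FPKM with TP53TG1 and 12.7 ± 1.91 FPKM in controls (SD, n = 3 each). All other collagens summed to 211 ± 2.61 FPKM with TP53TG1 and 251 ± 75.5 FPKM in controls (SD, n = 3 each), where control 1 alone reached 335 FPKM.

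Relative to the median of all genes tested, the median log2 fold change was 0.81 for the 5 fibrillar chains, 0.21 for the 2 type IV chains and 0.14 for the 7 others. The fibrillar value was 0.38 without TP53TG1 replicate 1. The type IV value was 0.43, 0.12 and 0.056 without TP53TG1 replicates 1, 2 and 3 and 0.052 without control 1. The value of the others moved with every library, to 0.020, 0.22 and 0.31 without TP53TG1 replicates 1, 2 and 3 and to 0.53, -0.053 and 0.078 without controls 1, 2 and 3. With all libraries, 5 of 5 fibrillar, 2 of 2 type IV and 6 of 7 other chains lay above the median of all genes. These counts were 4 of 5 and 1 of 2 for fibrillar and type IV chains without control 1, and 2 of 7 for the others without control 2. When all genes above 0 in at least 1 library were included, the fibrillar value was 0.14 over 10 chains. The classes were not tested against each other.

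**Figure D2:**
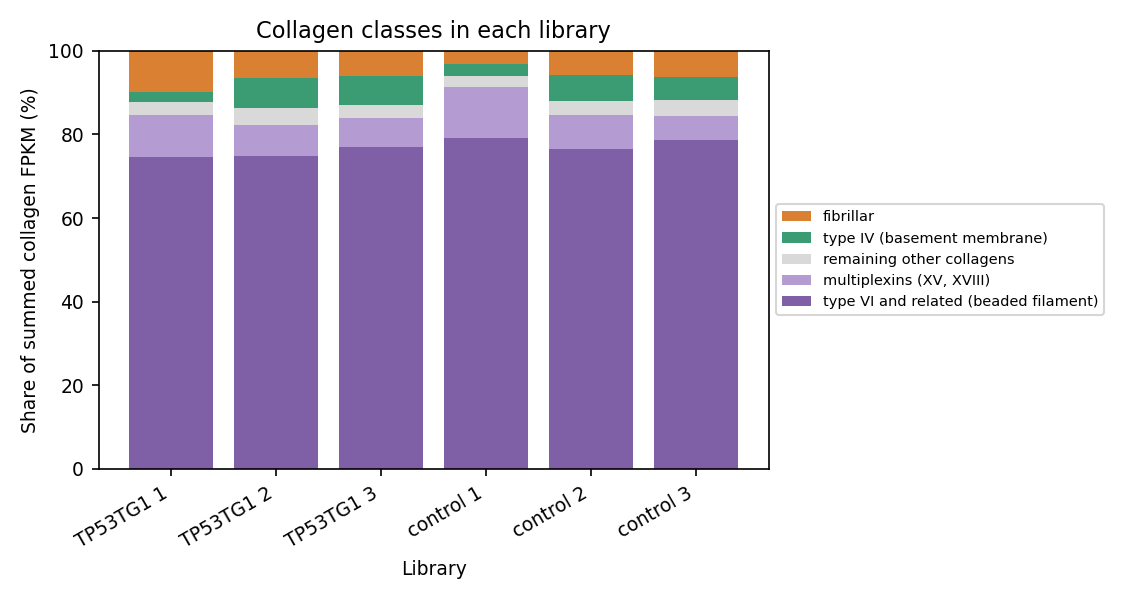
Share of the summed collagen FPKM, in percent, held by each collagen class in the 3 TP53TG1 libraries and, to their right, the 3 control libraries. Type VI and related chains hold at least 74.6% of each bar, and the fibrillar share is largest in TP53TG1 replicate 1 (9.87%) and smallest in control 1 (3.15%).

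Type VI collagen is a heterotrimer whose common form has an alpha 1, an alpha 2 and an alpha 3 chain. COL6A1 (chr21:45981737-46005050, plus strand) had 80.5, 101 and 117 FPKM with TP53TG1 and 158, 97.4 and 104 FPKM in controls. The groups overlapped, with the lowest value in TP53TG1 replicate 1 and the highest in control 1. Its log2 fold change was -0.24 (SE 0.290) unscaled and 0.16 after median-of-ratios scaling.

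COL6A2 (chr21:46098097-46132849, plus strand), next to COL6A1 on the chromosome, had 89.9, 54.4 and 52.4 FPKM with TP53TG1 and 111, 41.1 and 72.4 FPKM in controls. Within each group replicate 1 was the highest, and the groups overlapped. Its log2 fold change was -0.12 (SE 0.399) unscaled and 0.28 after median-of-ratios scaling.

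COL6A3 (chr2:237324003-237414375, minus strand), the gene of the longest of these chains, had 6.98, 25.4 and 18.7 FPKM with TP53TG1 and 13.4, 24.5 and 30.2 FPKM in controls. Here replicate 1 was the lowest of each group, the reverse of COL6A2. The log2 fold change was -0.49 (SE 0.498), the lowest of the 14 chains, and it was -0.11 after median-of-ratios scaling and 0.017 when TP53TG1 replicate 1 was left out. The level of COL6A1 over that of COL6A3 was therefore uneven, at 11.5, 4.0 and 6.26 with TP53TG1 and 11.8, 3.98 and 3.44 in controls.

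The transcripts that carried these levels also differed between the replicates numbered 1 and the rest. The full-length coding transcript COL6A1-201 (4238 nt) held 24.6%, 64.5% and 59.1% of the gene's FPKM with TP53TG1 and 29.9%, 62.9% and 59.0% in controls. Most of the remainder lay on COL6A1-206, a 2358 nt noncoding transcript that ends at the gene's 3′ end, which held 74.7%, 35.3% and 38.4% with TP53TG1 and 69.1%, 36.3% and 33.3% in controls. The pattern followed the replicate number rather than the plasmid.

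For COL6A3, the retained-intron transcript COL6A3-212 (6731 nt), which reaches to within 16 nt of the gene's 3′ end, held 53.6%, 2.25% and 2.83% with TP53TG1 and 62.9%, 1.80% and 1.53% in controls. The coding transcript COL6A3-203 (9963 nt) was at 0.84, 13.1 and 7.17 FPKM with TP53TG1 and 0.67, 11.7 and 13.6 FPKM in controls. COL6A3-209 (8628 nt), also coding, was at 1.04, 11.0 and 10.4 FPKM with TP53TG1 and 3.58, 11.4 and 14.8 FPKM in controls. Both coding transcripts were thus lowest in the replicates numbered 1, which also had the lowest weighted transcript length, and the part of transcript length in the chain levels was not tested.

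**Figure D3:**
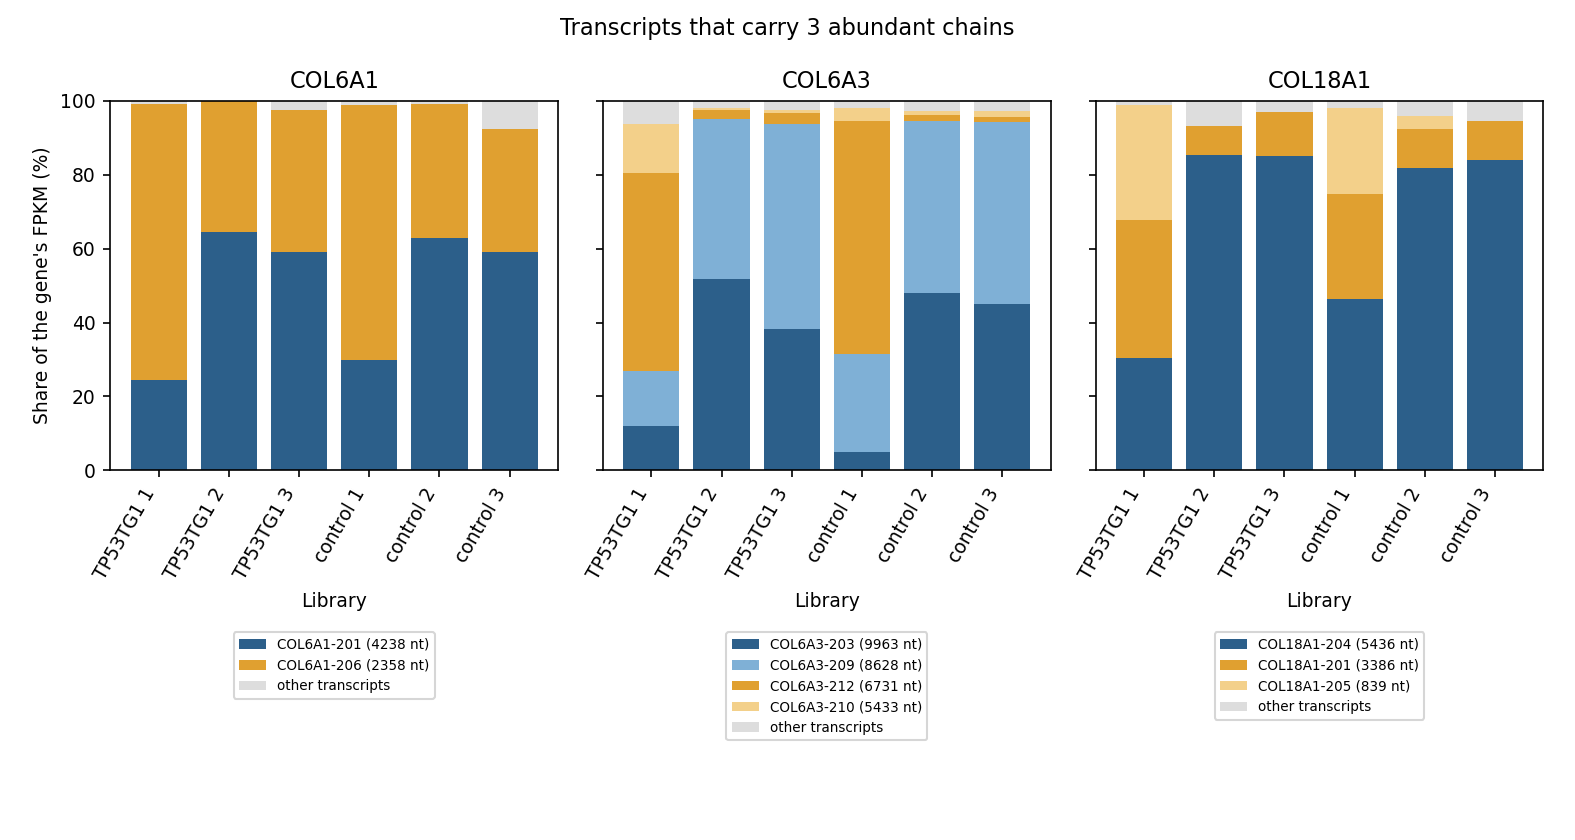
Share of a gene's FPKM, in percent, held by its main transcripts for COL6A1, COL6A3 and COL18A1, with the 3 TP53TG1 libraries to the left of the 3 control libraries in each panel and transcript lengths in the legends. In replicate 1 of both groups the long coding transcripts (blue) hold a smaller share than in replicates 2 and 3, for example 24.6% and 29.9% for COL6A1-201 against at least 59.0% in the other 4 libraries.

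COL18A1 (chr21:45405137-45513720, plus strand) was the third most abundant chain gene. It had 23.7, 17.9 and 17.1 FPKM with TP53TG1 and 43.0, 17.5 and 15.0 FPKM in controls. Replicate 1 was the highest of each group, and the groups overlapped. Unscaled, the log2 fold change was -0.21 (SE 0.418), against 0.18 after median-of-ratios scaling.

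In replicates 2 and 3 of both groups, most COL18A1 RNA was assigned to the upstream start. COL18A1-204 (5436 nt), which begins near it, held 30.5%, 85.2% and 85.0% of the gene's FPKM with TP53TG1 and 46.5%, 81.7% and 83.9% in controls. COL18A1-202 (5924 nt), which begins near the downstream start, held 1.02% to 3.98% with TP53TG1 and 1.33% to 3.20% in controls. In the replicates numbered 1 larger parts lay on COL18A1-201 and COL18A1-205. COL18A1-201 (3386 nt), a coding transcript that begins beyond both starts shown, at chr21:45490275, held 37.3% in TP53TG1 replicate 1 and 28.4% in control 1. In the other libraries it held 8.01% to 11.9%. COL18A1-205, a transcript of 839 nt near the 3′ end, held 31.0% in TP53TG1 replicate 1 and 23.3% in control 1. COL18A1 shares 1401 exon bases with SLC19A1 on the opposite strand, a folate carrier gene at 8.51 to 20.1 FPKM with TP53TG1 and 12.0 to 15.3 FPKM in controls, and whether counting used strand is not given in the sources used here.

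Of the type IV chains, COL4A5 (chrX:108439844-108697545, plus strand), whose chain pairs with alpha 3 and alpha 4 or with alpha 6, was the most abundant. It had 3.18, 10.9 and 10.03 FPKM with TP53TG1 and 7.98, 7.54 and 8.22 FPKM in controls. TP53TG1 replicate 1 was the lowest library, and the other 2 TP53TG1 libraries were above all controls. Its log2 fold change was -0.12 (SE 0.449), against 0.22 after median-of-ratios scaling and 0.36 when TP53TG1 replicate 1 was left out.

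COL4A6, the head-to-head partner of COL4A5, missed a mean of 1 FPKM, with 0.27, 1.77 and 1.76 FPKM with TP53TG1 and 0.49, 0.40 and 0.81 FPKM in controls. Its order across the TP53TG1 libraries resembled that of COL4A5, and the groups overlapped through TP53TG1 replicate 1. The ratio of COL4A5 to COL4A6 was 11.8, 6.14 and 5.70 with TP53TG1 and 16.3, 18.9 and 10.1 in controls. COL4A3 was listed at 0 in all 6 libraries and COL4A4 did not exceed 0.08 FPKM, so the other partners of the alpha 5 chain were near or at 0.

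COL4A2 (chr13:110305812-110513209, plus strand) had 1.28, 4.12 and 4.76 FPKM with TP53TG1 and 1.78, 4.8 and 4.85 FPKM in controls. The replicates numbered 1 were low in both groups, and the log2 fold change was -0.16 (SE 0.482), against 0.11 with median-of-ratios scaling. The spread lay in a short noncoding transcript of 679 nt, COL4A2-204, at 0, 2.50 and 3.50 FPKM with TP53TG1 and 0.93, 3.61 and 2.44 FPKM in controls. The full-length coding transcript COL4A2-201 (6494 nt) varied less, with 1.28, 1.23 and 1.26 FPKM with TP53TG1 and 0.85, 1.19 and 1.06 FPKM in controls. For this transcript taken by itself the TP53TG1 libraries lay above the controls, by 1.23 against 1.19 FPKM at the closest. The share of all transcripts with such an order was not counted. COL4A2-201 was chosen after its values were seen and was not tested.

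COL4A1, across the shared interval from COL4A2, lay lower, with 0.77, 0.44 and 0.39 FPKM with TP53TG1 and 0.35, 0.21 and 0.49 FPKM in controls. Over coding transcripts the ratio of COL4A2 to COL4A1 was 1.66, 3.68 and 3.23 with TP53TG1 and 2.43, 5.67 and 5.36 in controls. These ratios include COL4A2-206, a coding transcript of only 535 nt. It held 1.29 of the 2.41 coding FPKM of COL4A2 in control 3 and was at 0.39 FPKM in TP53TG1 replicate 2. COL4A2 was the higher of the pair in each of the 6 libraries. The common type IV trimer holds 2 alpha 1 chains and a single alpha 2 chain.

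Among the fibrillar chains, the genes of types I and III had the highest log2 fold changes of the 14 chains. COL1A1 (chr17:50183289-50201632, minus strand), the gene of the type I alpha 1 chain, had 10.9, 3.05 and 3.19 FPKM with TP53TG1 and 2.79, 1.81 and 2.85 FPKM in controls. Unscaled, it was the only tested chain whose groups did not overlap. Of all genes tested, 0.428% had all TP53TG1 libraries above all controls and 13.3% had them below. With median-of-ratios scaling the COL1A1 groups did not overlap either, where these shares were 2.02% above and 2.05% below. The means were 5.71 ± 4.48 FPKM with TP53TG1 and 2.48 ± 0.584 FPKM in controls (SD, n = 3 each), a ratio of 2.30, and TP53TG1 replicate 1 carried most of the difference.

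For COL1A1 the log2 fold change was 0.77 (SE 0.473), and limma's Benjamini-Hochberg adjusted p was 0.748. Over the alternatives its adjusted p ran from 0.361, with the replicate number as a block, to 1.00. Without TP53TG1 replicate 1 the log2 fold change was 0.26. In TP53TG1 replicate 1, 40.3% of the COL1A1 FPKM lay on COL1A1-204, a retained-intron transcript of 640 nt at the gene's 5′ end. Over coding transcripts alone COL1A1 had 6.43, 3.05 and 2.79 FPKM with TP53TG1 and 2.25, 1.81 and 2.85 FPKM in controls, and the groups overlapped.

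COL1A2 (chr7:94394561-94431232, plus strand), the gene of the alpha 2 chain that joins 2 alpha 1 chains in type I collagen, had 6.64, 2.94 and 2.72 FPKM with TP53TG1 and 2.05, 2.33 and 3.25 FPKM in controls. TP53TG1 replicate 1 was again the highest library, and the groups overlapped. Its log2 fold change was 0.46 (SE 0.393), against 0.79 after median-of-ratios scaling and 0.13 when TP53TG1 replicate 1 was left out. The ratio of COL1A1 to COL1A2 was 1.64, 1.04 and 1.17 with TP53TG1 and 1.36, 0.777 and 0.877 in controls.

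COL3A1 (chr2:188974320-189012746, plus strand), the single chain of type III collagen, had 3.21, 1.22 and 1.33 FPKM with TP53TG1 and 1.11, 0.63 and 1.29 FPKM in controls. All of its FPKM lay on the coding transcript COL3A1-201. The COL3A1 log2 fold change was 0.49 (SE 0.361), against 0.76 after median-of-ratios scaling and 0.19 when TP53TG1 replicate 1 was left out. The groups overlapped by TP53TG1 replicate 2 and control 3 only, and with median-of-ratios scaling they did not overlap, where 2.02% of all genes tested had the TP53TG1 libraries above.

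Between libraries of equal number, COL1A1 was 3.90, 1.69 and 1.12 times its control, COL1A2 3.24, 1.26 and 0.837 times and COL3A1 2.89, 1.94 and 1.03 times. The ratio was largest in pair 1 and smallest in pair 3 for all 3 genes. For COL1A1 and COL3A1 TP53TG1 was above control in all 3 pairs, which held for 1.24% of all genes tested. That share is of unscaled values, on which the median log2 fold change of all genes tested was -0.35.

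Types V and XXVII did not share this order. COL5A2 (chr2:189031896-189225312, minus strand), a chain of the type V collagen that is built into type I fibrils, had 0.56, 2.39 and 1.69 FPKM with TP53TG1 and 1.03, 1.61 and 1.60 FPKM in controls, a log2 fold change of 0.015 (SE 0.371), against 0.21 after scaling. COL27A1 (chr9:114155560-114312511, plus strand), a fibrillar chain known from cartilage, had 1.25, 4.90 and 5.14 FPKM with TP53TG1 and 2.02, 4.53 and 5.68 FPKM in controls, a log2 fold change of -0.15 (SE 0.502), against 0.13 after scaling. In both genes replicate 1 was the lowest library of each group, where for the type I and III chains TP53TG1 replicate 1 was the highest of all.

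**Figure D4:**
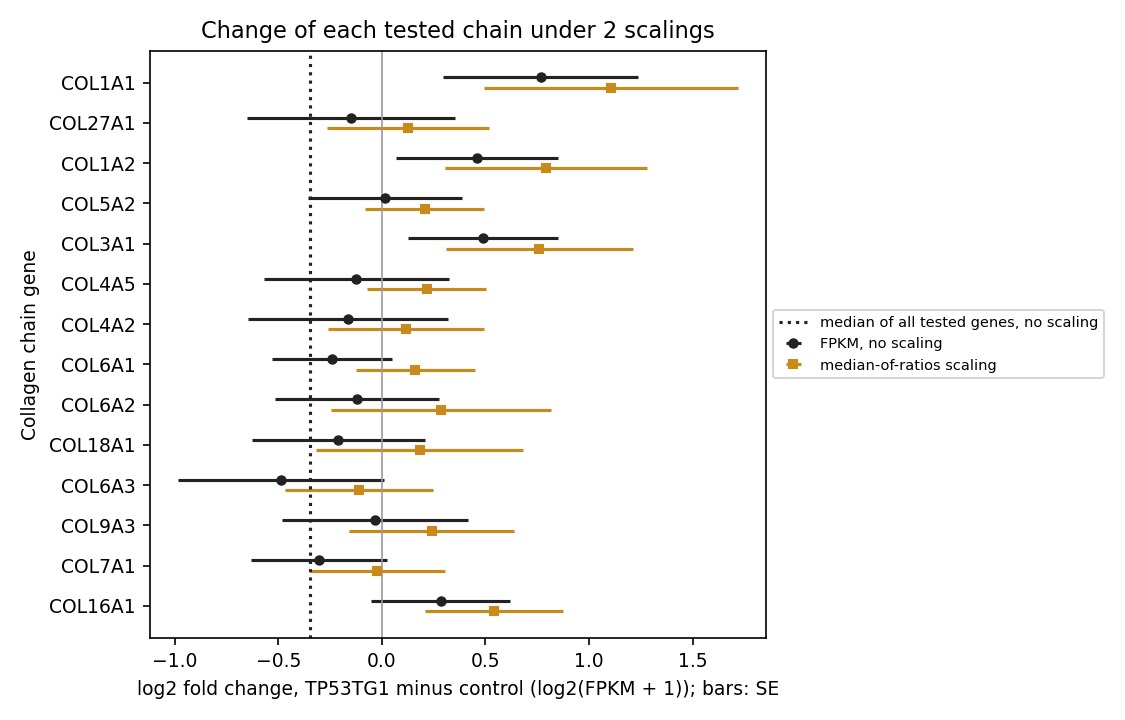
Log2 fold change of the 14 tested chains, TP53TG1 minus control on log2(FPKM + 1), with bars for the standard error, without scaling (black) and with median-of-ratios scaling (orange). COL1A1 is furthest to the right at 0.77 and 1.11, 7 chains cross 0 between the scalings, and none passed the test.

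The remaining 3 tested chains were low and rested largely on short or noncoding transcripts. COL9A3 (chr20:62816244-62841159, plus strand), a chain of the fibril-associated type IX, had 1.78, 4.79 and 1.5 FPKM with TP53TG1 and 3.58, 3.14 and 1.28 FPKM in controls, with a log2 fold change of -0.034 (SE 0.449), against 0.24 after median-of-ratios scaling. Its coding transcripts alone averaged 0.112 FPKM over the 6 libraries. It shares 45 exon bases with TCFL5 on the opposite strand.

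COL7A1 (chr3:48564073-48595267, minus strand), which encodes the anchoring fibrils that hold skin epidermis to dermis, had 1.82, 1.74 and 1.27 FPKM with TP53TG1 and 2.43, 1.47 and 2.90 FPKM in controls, with a log2 fold change of -0.30 (SE 0.329), against -0.023 after median-of-ratios scaling. COL16A1 (chr1:31652247-31704319, minus strand), another fibril-associated chain, had 1.82, 1.41 and 1.96 FPKM with TP53TG1 and 1.08, 0.74 and 2.08 FPKM in controls, with a log2 fold change of 0.28 (SE 0.336), against 0.54 after scaling. Both overlapped between the groups. Over coding transcripts COL7A1 averaged 0.205 FPKM and COL16A1 0.692 FPKM, so 11 of the 14 chains reached a mean of 1 FPKM on coding transcripts alone.

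Of the 30 chains below a mean of 1 FPKM, 24 were above 0 in at least 1 library and 6 were listed at 0 throughout. The 6 were COL2A1, the cartilage collagen, and COL4A3, COL6A5, COL19A1, COL23A1 and COL25A1. COL4A6 stood nearest below the limit, at a mean of 0.917 FPKM, and COL3A1 nearest above it. Besides COL4A6, only COL11A2 and COL21A1 reached 1 FPKM in any library, and the other 21 chains above 0 stayed below it everywhere.

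COL11A2, a fibrillar chain of type XI, had 0.40, 0.46 and 0.32 FPKM with TP53TG1 and 1.40, 0.58 and 0.62 FPKM in controls. All TP53TG1 libraries were below all controls, as in 8.34% of all genes above 0 in at least 1 library. With no filter on low values COL11A2 stood at a log2 fold change of -0.40 (SE 0.210), and limma's Benjamini-Hochberg adjusted p was 0.799. COL21A1 had 0.02, 0.08 and 0.86 FPKM with TP53TG1 and 0.02, 0.08 and 2.20 FPKM in controls, and the high values of both replicates numbered 3 lay on COL21A1-207, a noncoding transcript of 277 nt.

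COL8A1, a short-chain collagen of vessel walls and the cornea, was the only other chain whose groups did not overlap, and 0.787% of all genes above 0 in at least 1 library had the TP53TG1 libraries above. It had 0.22, 0.24 and 0.19 FPKM with TP53TG1 and 0.05, 0.07 and 0.10 FPKM in controls. With no filter COL8A1 stood at a log2 fold change of 0.18 (SE 0.0469), where limma gave an unadjusted p of 0.00771 and a Benjamini-Hochberg adjusted p of 0.799. In that fit 3.04% of all genes had an unadjusted p under 0.05. COL5A1 and COL5A3, the partners of COL5A2 in type V collagen, reached at most 0.34 and 0.51 FPKM, and COL12A1 reached 0.84 FPKM in TP53TG1 replicate 1 through a retained-intron transcript of 499 nt.

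None of the genes that modify, export, cleave or bind collagen passed the test either. Of the 37 tested, 0 had an unadjusted p under 0.05 in the unscaled limma fit. With median-of-ratios scaling 2 did, where 94 of all 12853 genes did upward and 56 downward. With the replicate block 3 did, against 10.7% of all genes. With block and scaling together 5 did, where 408 of all 12853 genes did upward and 275 downward. Of 19 genes for collagen modification and folding in the endoplasmic reticulum, 16 were tested, 0 passed in either direction, 0 had an unadjusted p under 0.05 and 13 lay above the median of all genes, with a list median of -0.14. CRTAP, part of the prolyl 3-hydroxylase complex, had 94.8, 146 and 156 FPKM with TP53TG1 and 222, 179 and 172 FPKM in controls. Its TP53TG1 libraries were all below the controls, as were those of 13.3% of all genes tested, and its log2 fold change was -0.55 (SE 0.278), against -0.14 after median-of-ratios scaling. P4HB, the protein disulfide isomerase that is the beta subunit of prolyl 4-hydroxylase, was the most abundant at 721 ± 170 FPKM with TP53TG1 and 683 ± 41.8 FPKM in controls (SD, n = 3 each).

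TMEM38B, an endoplasmic reticulum cation channel gene, had a log2 fold change of -0.68 (SE 0.484), against -0.31 after scaling. For FKBP10, a collagen chaperone and prolyl isomerase gene, it was -0.39 (SE 0.288), and it was 0.0084 with median-of-ratios scaling. For PLOD2, the lysyl hydroxylase that acts on the telopeptides, it was 0.32 (SE 0.321). After median-of-ratios scaling it was 0.72 (SE 0.201), with an adjusted p of 0.9999 from limma. PLOD2 had 54.6, 114 and 99.2 FPKM with TP53TG1 and 73.9, 68.0 and 62.6 FPKM in controls. Unscaled, TP53TG1 replicates 2 and 3 were above all controls for PLOD2 and replicate 1 was below them. After median-of-ratios scaling all TP53TG1 libraries were above all controls, as in 2.02% of all genes tested.

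Of 9 genes for procollagen export from the endoplasmic reticulum, 8 were tested, 0 passed in either direction and 4 lay above the median of all genes, with a list median of -0.35. MIA3 (TANGO1), the receptor that loads procollagen into carriers, had 13.8, 21.6 and 14.5 FPKM with TP53TG1 and 29.1, 30.9 and 19.1 FPKM in controls. The groups overlapped through TP53TG1 replicate 2 and control 3, and the log2 fold change was -0.63 (SE 0.331), against -0.24 after median-of-ratios scaling. For SAR1B, KLHL12 and SEC23A, which help form or enlarge the COPII coat, the log2 fold changes were -0.48, -0.46 and -0.48, against -0.090, -0.094 and -0.089 after scaling. SEC13, a COPII coat gene, was the most abundant at 95.9 ± 21.5 FPKM with TP53TG1 and 110 ± 19.3 FPKM in controls (SD, n = 3 each).

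Of 15 genes for procollagen cleavage and crosslinking, 8 were tested, 0 passed in either direction and 4 lay above the median of all genes, with a list median of -0.27. FURIN, a proprotein convertase that activates procollagen proteinases, was the most abundant, with 11.3, 33.8 and 19.5 FPKM with TP53TG1 and 24.4, 43.9 and 39.8 FPKM in controls, a log2 fold change of -0.80 (SE 0.426), against -0.41 after median-of-ratios scaling. PCOLCE, an enhancer of C-proteinase, had a log2 fold change of -0.72 (SE 0.438), against -0.37 after scaling. The lysyl oxidase family members LOXL1 and LOXL2 stood at -0.35 (SE 0.346) and 0.36 (SE 0.415), and at 0.031 and 0.725 after scaling. ADAMTS2, ADAMTS3 and ADAMTS14, the N-proteinases of fibrillar procollagens, were below 0.1 FPKM in all 6 libraries.

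Of 11 collagen receptor genes, 5 were tested, 0 passed in either direction and 3 lay above the median of all genes, with a list median of -0.26. ITGB1, the beta subunit shared by the collagen-binding integrins, had 77.8, 352 and 313 FPKM with TP53TG1 and 201, 340 and 337 FPKM in controls, and replicate 1 was the lowest of each group. Its log2 fold change was -0.47 (SE 0.541), against -0.065 after median-of-ratios scaling. The values were -0.39 (SE 0.328) for DDR1, a collagen-binding receptor tyrosine kinase, -0.26 (SE 0.592) for ITGA1, an integrin alpha subunit, and 0.38 (SE 0.557) for OSCAR, an immune receptor for collagen. After scaling they were -0.018, 0.020 and 0.64.

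Markers of cells that make fibrillar collagen in liver were mostly low. Of 10 fibroblast and stellate cell markers, 4 (LUM, RGS5, ACTA2 and DCN) reached a mean of 1 FPKM, and all 10 together summed to 17.7 to 23.5 FPKM with TP53TG1 and 19.4 to 21.2 FPKM in controls. The sum was carried by LUM, at 9.99 to 15.0 FPKM with TP53TG1 and 10.9 to 14.0 FPKM in controls. TP53TG1 replicate 1, the library highest in COL1A1, COL1A2 and COL3A1, had the lowest of these unscaled sums. It had the highest level of PDGFRA, THY1 and ACTA2, at 0.12, 1.00 and 2.59 FPKM, against at most 0.03, 0.74 and 2.10 FPKM in the other 5 libraries. It was not the highest for any other marker of the list, and for LUM and RGS5 it was the lowest, at 9.99 and 1.83 FPKM. PDGFRB and FAP did not exceed 0.22 and 0.24 FPKM in any library. The 5 endothelial markers summed to 1.96 to 9.19 FPKM with TP53TG1 and 6.86 to 12.3 FPKM in controls, with VWF, CDH5 and TEK at or below 0.17 FPKM. The 16 hepatocyte markers summed to 58.2 to 126 FPKM with TP53TG1 and 125 to 148 FPKM in controls. TP53TG1 replicate 1 was again the lowest before scaling. Median-of-ratios scaling divides each level by a factor of its library. That factor was 0.597 in TP53TG1 replicate 1, while no other library had a factor below 0.9994. Scaling thus raises TP53TG1 replicate 1 relative to the rest, and its lowest places among markers and sums are stated for unscaled values only. After this division TP53TG1 replicate 1 had the highest fibroblast and stellate cell sum and the highest LUM level instead. The order of the other markers and sums after scaling was not examined. The part of cell makeup in the chain levels was not tested.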

How the data were processed

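TRIzol extraction, DNase I treatment and a TruSeq RNA kit were used, per the labels' protocols. The submitters' processing notes name HISAT2 (an aligner), StringTie (a transcript quantifier) and build GRCh38.p10. Versions, strandedness and the annotation used were not given in the sources used here. From these the authors deposited 1 value per transcript and library for 199234 transcripts. The file headers give no unit, and the deposited values were taken as FPKM because they are not whole and library sums differ, although coverage per base cannot be told apart from it. Fragment counts were not analysed here. Depth was estimated from percentile 5 of value times length in single-transcript genes of 300 to 600 nt, and no interval was derived from it.

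Transcripts were summed per gene, with blank names filled by transcript from the other libraries. Transcript types, lengths and coordinates came from GENCODE release 29 (GRCh38), which held 99.8% of the transcripts. Genes averaging 1 FPKM or more were tested on log2(FPKM + 1) in R 4.3.3 with limma 3.58.1 (lmFit, eBayes with trend). Differences are TP53TG1 minus control, p-values were Benjamini-Hochberg adjusted, and the threshold was 0.05. The fit was tested on simulated data with 200 changed genes. Tables were made with Python 3.11.15 and pandas 2.3.3 and drawn with matplotlib 3.10.9.

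Alternatives were median-of-ratios scaling, an equal total per library, a pseudocount of 0.1, no filter, a mean of at least 5 FPKM, leaving out libraries, and the replicate number as a block. A fit on protein-coding transcripts alone was added after seeing the data. All chains were accounted for, those with a mean of at least 1 FPKM singly. From each list of other genes up to 4 with the smallest p and the most abundant were named. The members and lists were chosen with earlier results of these data known.

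The labels number each group's libraries 1 to 3 without saying what a number shares. Across genes, a library's deviation from its group mean correlated with that of the library of equal number at 0.710 for 1, 0.562 for 2 and 0.289 for 3. Each exceeds the limit of 0.1 set for pairing. Libraries of unlike number exceeded it too, at 0.400 for TP53TG1 replicate 2 with control 3 and 0.302 for TP53TG1 replicate 3 with control 2. Both are above the 0.289 of the libraries numbered 3, so the limit does not identify that pair, and the replicate block assumes it.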

Additional observations from a re-analysis of the deposited data

How the results depend on the processing

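No collagen chain, and no gene for collagen production or reception, passed the threshold under any of the alternatives run. Of all genes, 1 passed, against 2 with median-of-ratios scaling, 2 at a mean of at least 5 FPKM, 0 without a filter, 0 on protein-coding transcripts alone and 0 to 1 when libraries were left out. Adding the replicate block let 192 genes pass (1.49%), and the block with scaling by median of ratios 6 (0.0467%), and neither changed a call among the chains. The fibrillar median relative to all genes was 0.14 without a filter, against 0.81, as more low chains entered. It ran from 0.37 to 1.09 when libraries were left out, with 0.38 without TP53TG1 replicate 1 and 0.37 without replicate 1 of both groups. The type IV value then ran from 0.052 to 0.43 and that of the other chains from -0.053 to 0.53. No fibrillar chain was left at a mean of at least 5 FPKM.

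With median-of-ratios scaling, with or without the block, these log2 fold changes turned positive: COL6A1 0.16, COL18A1 0.18, COL4A2 0.11, COL6A2 0.28, COL27A1 0.13, COL4A5 0.22, COL9A3 0.24, FKBP10 0.0084, ITGA1 0.020, LOXL1 0.031 and SEC13 0.20. With an equal total per library they were 0.021, 0.047, 0.014, 0.14, 0.030, 0.11 and 0.16 for the same 7 chains and 0.063 for SEC13. With a pseudocount of 0.1 COL5A2 was at -0.053. When libraries were left out, log2 fold changes that took both signs ran from -0.85 to 0.017 for COL6A3, -0.37 to 0.12 for COL6A1, -0.49 to 0.22 for COL6A2, -0.49 to 0.24 for COL18A1, -0.39 to 0.37 for COL4A5, -0.52 to 0.25 for COL4A2, -0.49 to 0.32 for COL27A1, -0.23 to 0.33 for COL5A2 and -0.41 to 0.31 for COL9A3. They ran from -0.099 to 0.25 for P4HB, -0.86 to 0.22 for ITGB1, -0.76 to 0.29 for ITGA1, -0.27 to 0.78 for OSCAR, -0.53 to 0.053 for LOXL1, -0.90 to 0.17 for SEC23A and -0.37 to 0.080 for SEC13. Positive values within these ranges include 0.10 for COL18A1 without replicate 1 of both groups, 0.36 for COL4A5 without TP53TG1 replicate 1 and 0.19 for COL9A3 without TP53TG1 replicate 3. The cause was not tested. Depth is known only as an estimate. By it a 5000 nt transcript at 1 FPKM rested on 54.9 to 74.1 fragments, and chains near 0 rested on few.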
